A study of Arabidopsis thaliana with 17 samples.

Results

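H3K27me3 domains of Arabidopsis thaliana endosperm that lie on the chromosome arms and touch no protein-coding gene were examined. The domain lists of 4 endosperm H3K27me3 libraries were joined into 8599 merged intervals on the 5 nuclear chromosomes. An interval was kept when it shared no base with an annotated protein-coding gene body and when its midpoint lay outside the pericentromeric stretches, which were set at 11.5 to 17.7 Mb of chromosome 1, 1 to 7.2 Mb of chromosome 2, 10.3 to 17.3 Mb of chromosome 3, 1.5 to 6.3 Mb of chromosome 4 and 9 to 16 Mb of chromosome 5. The rule kept 1067 intervals, 12.4% of all merged intervals, which span 2.01 Mb; they are called intergenic arm intervals here. Another 6409 arm intervals (74.5%) touched a protein-coding gene, and 333 pericentromeric intervals touched none.

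The libraries were made by CUT&RUN, in which a nuclease held by an antibody on chromatin releases the DNA around the antibody's target. Endosperm nuclei of 6N content were sorted 4 days after pollination from F1 seeds of a Col mother and a Ler father, and were either fixed with 1% formaldehyde for 8 min (2 H3K27me3 libraries) or left unfixed (2 H3K27me3 libraries). Leaf nuclei of 2N, 4N and 8N content came from 3-week-old Col plants and gave 1 H3K27me3 library. A 6N nucleus is a triploid endosperm nucleus after a round of DNA replication, and the sort is by DNA content alone, so the label names no single type of endosperm cell. Nothing in the labels ties the 2 libraries of a treatment to separate seed collections, so p-values measure only the spread between these samples, which may be technical.

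H3K27me3 is set by Polycomb repressive complex 2 and marks genes held silent in a given tissue. In plants it lies mainly over the bodies of silent genes on the chromosome arms rather than over heterochromatin, and many of the marked genes encode regulators of development, among them microRNA genes. The endosperm is the nutritive seed tissue with a double maternal and a single paternal genome, and in it the mark is also tied to imprinted expression of parental alleles. In bulk nuclei, a mark present in fewer nuclei and a weaker mark in each nucleus cannot be told apart.

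Across the series the domain lists held 5878 to 8403 nuclear domains each. Allele-assigned reads of the endosperm libraries were available as 1 pooled table, with 12189039 H3K27me3 and 7638577 H3 reads in the nuclear genome. The Col share of H3 reads was 81.2% genome-wide and 81.3% in the intergenic arm intervals, against the 66.7% that genome dosage alone would give. A mapping preference for Col and nuclei of maternal seed tissue could both move that share, and their part was not tested.

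The intergenic arm intervals were mostly short. Their median width was 1500 bp, with the middle 50% between 1050 and 2250 bp and the extremes at 150 and 16050 bp. The median was 2100 bp for arm intervals that touch a gene and 1500 bp for pericentromeric intervals outside genes. Only 38 intergenic arm intervals were 5 kb or wider, and 559 were 1500 bp or narrower. A wide interval has more chance to reach a gene, so short width is partly built into the rule.

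Within each library the same order held among the authors' own domains. The median domain width in the intergenic arm intervals was 1350 bp in fixed 1, 1650 bp in fixed 2, 1350 bp in unfixed 1 and 900 bp in unfixed 2. In arm intervals that touch a gene it was 1950, 2400, 1950 and 1200 bp in the same libraries. Intergenic domains were narrower in all 4 libraries, with a difference of -562.5 ± 189 bp (1312.5 ± 309 bp against 1875 ± 497 bp, SD, n = 4 libraries). The two-sided exact paired permutation test gave p = 0.125, which is the smallest p that 4 pairs allow. The classes were set from these same lists, so the narrower width is partly built into the rule here too. The test cannot tell how much of it is. Leaf domains that met an intergenic arm interval had a median full width of 2400 bp, and those that met a gene-touching one 2850 bp. The leaf list was not part of the merge, so its domains can run past the intervals and into genes. The leaf values are therefore not a like-for-like repeat. The authors' log2 enrichment per domain did not separate the classes: the medians averaged 1.28 ± 0.23 in the intergenic arm intervals and 1.23 ± 0.17 in gene-touching ones (SD, n = 4 libraries), a difference of 0.05 ± 0.06 (exact permutation p = 0.375).

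Fewer of the intergenic arm intervals were found in every library. Of the 1067, 503 (47.1%) came from 1 list, 207 (19.4%) from 2, 210 (19.7%) from 3 and 147 (13.8%) from all 4. Among arm intervals that touch a gene, 35.1% came from 1 list and 39.5% from all 4. Wider intervals were held by more lists, with a median width of 1050 bp for 1 list, 1650 bp for 2, 2250 bp for 3 and 3150 bp for all 4. Joining domains of more lists widens an interval, and a wider one is met by more lists, so this trend is partly built in. Gene-touching intervals were wider, and the part of width in their larger share held by all 4 lists was not tested. Intervals seen in 1 list alone numbered 168 in fixed 1, 91 in fixed 2, 171 in unfixed 1 and 73 in unfixed 2. Another 168 intervals were present in every list but unfixed 2, more than the 147 present in all.

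Unfixed 2 stood apart from the other endosperm libraries. Domains covered 1110.9 kb of the intergenic arm intervals in fixed 1 and 1078.95 kb in fixed 2, against 1198.8 kb in unfixed 1 and 338.85 kb in unfixed 2. Fixed 1, fixed 2, unfixed 1 and unfixed 2 met 640, 526, 663 and 306 of the 1067 intervals. These intervals held 9.68% and 9.58% of all domains of the fixed libraries, against 9.05% and 3.99% of those of unfixed 1 and unfixed 2. Unfixed 2 had the most domains of any list and the smallest share of them here. Fixed libraries averaged 1095 ± 22.6 kb and unfixed libraries 769 ± 608 kb (SD, n = 2 each). The difference, 326 kb, did not exceed the SD of the unfixed libraries (two-sided exact permutation p = 1, with 0.333 the smallest possible). Without unfixed 2 the difference turned to -113 kb.

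**Figure D1:**
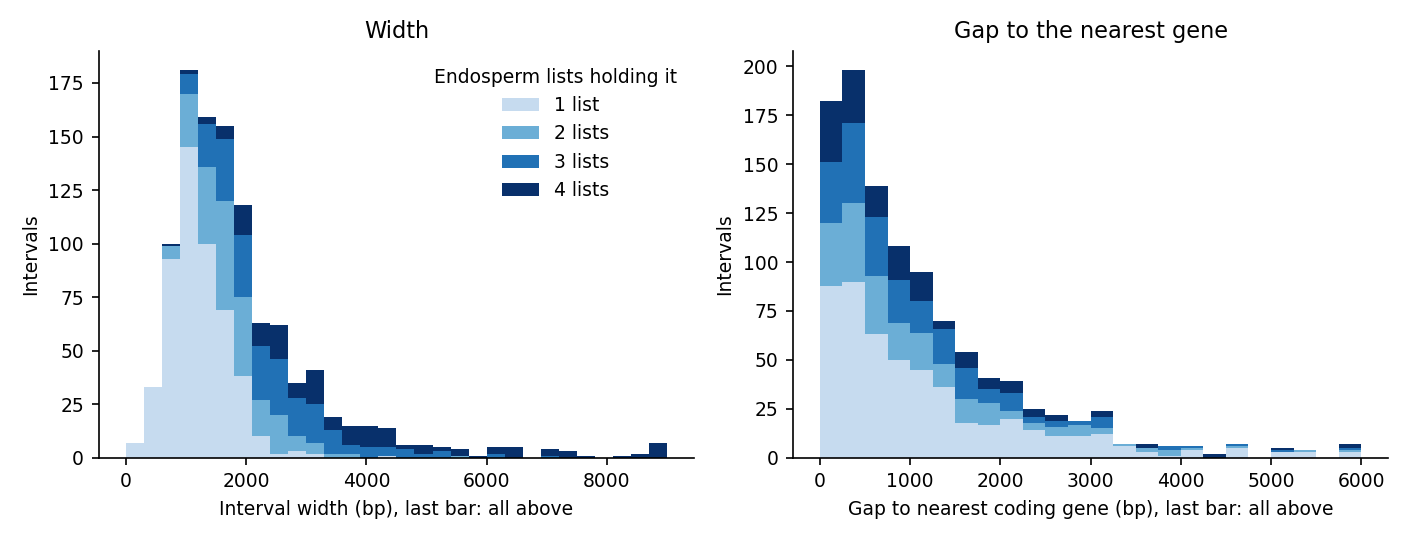
Number of intergenic arm intervals by width (left, 300 bp bars) and by gap to the nearest protein-coding gene (right, 250 bp bars), coloured by how many of the 4 endosperm lists hold the interval; the last bar of each panel collects all larger values. Most intervals in 1 list are narrow, with a median of 1050 bp, and those in all 4 lists are wider, with a median of 3150 bp. The gaps have a median of 785 bp.

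Most intergenic arm intervals had a protein-coding gene within 1000 bp, which by the rule they did not reach. The median gap to the nearest protein-coding gene was 785 bp (95% interval 715 to 859 bp), with the middle 50% between 358 and 1531.5 bp. A gene lay within 500 bp of 380 intervals (35.6%), within 1000 bp of 627 (58.8%) and within 2000 bp of 887 (83.1%). Only 16 intervals were more than 5000 bp from any protein-coding gene, and the largest gap was 7732 bp. No gap was computed for unmarked arm sequence, so these distances do not set the intervals apart from other arm sequence between genes. The reference annotation used gives no strand, so whether an interval lies before or after its gene was not analysed here.

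The intervals sat in wide spaces between genes. The space that held an interval had a median length of 5508 bp (middle 50% 3606 to 8112 bp), against 771 bp over all 20654 such arm spaces; a space is at least as long as its interval, so this too is partly built into the rule. The interval filled 30.8% of its space at the median. Of the 1833 arm spaces of 4 kb or more, 602 (32.8%) held at least 1 intergenic arm interval. In all, 928 spaces held one and 120 of these held 2 or more. Together the intervals covered 6.62% of the 30.3 Mb of arm sequence outside protein-coding genes. They made up 16.8% of the endosperm-marked part of that sequence; the rest was marked by intervals that run into a gene.

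Genes beside the intervals were touched by the mark somewhat more often than arm genes as a whole, a difference that was not tested. The 1067 intervals had 1000 distinct nearest genes, of which 485 (48.5%) were touched by another endosperm interval, against 39.6% of the 24016 arm protein-coding genes. Leaf domains covered at least 50% of the body of 22.8% of the nearest genes and of 20.7% of arm genes. The next merged endosperm interval was 1200 bp away at the median, and within 1000 bp for 494 intervals.

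The edge of the rule separates intervals that differ by a few bases. At the inner edge, 94 intergenic arm intervals lay within 150 bp of a gene; their median width was 1500 bp and 40.4% were at least 50% covered in leaf. At the outer edge, 87 arm intervals overlapped a gene by 150 bp or less, with a median width of 1650 bp and 32.2% at least 50% covered in leaf. The smallest gaps were 0 bp, beside AT1G77815, and 4 bp, beside NCED2, which encodes an enzyme of abscisic acid synthesis. The smallest overlap among intervals left out was 2 bp. Near the pericentromeric limits, 14 intergenic arm intervals and 18 pericentromeric ones lay within 100 kb of a boundary.

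The widest intervals held in all 4 lists are described with the genes beside them. The widest, 16050 bp (chromosome 1, 27037651 to 27053700), ended 329 bp from SUC1, a sucrose transporter gene, and held the long non-coding RNA gene AT1G09273. It was covered over 11250 and 15300 bp in fixed 1 and fixed 2, over 11250 and 2400 bp in unfixed 1 and unfixed 2, and over 7500 bp (46.7%) in leaf. Unfixed 2 was the low library here, as it was for every interval of this group.

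CYP707A1 and CYP707A3 encode abscisic acid hydroxylases, enzymes that break down the hormone of seed dormancy, and each had one of these wide intervals at its side. The interval 558 bp from CYP707A1 (chromosome 4, 10510201 to 10520700) was covered over 7800 and 9450 bp in the fixed libraries and over 8400 and 1500 bp in unfixed 1 and unfixed 2. The interval 229 bp from CYP707A3 (chromosome 5, 18371251 to 18380400) was covered over 6750 and 9150 bp in the fixed libraries and over 7800 and 2250 bp in unfixed 1 and unfixed 2. Leaf domains covered 92.9% of the CYP707A1 interval and 42.6% of the CYP707A3 interval, while unfixed 2 was the low endosperm library at both.

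Another 2 of the 8 widest lay between an enzyme gene and a regulator gene. The interval of 9750 bp on chromosome 3 (1993201 to 2002950) lay 336 bp from PDK, a pyruvate dehydrogenase kinase gene, and 442 bp from MYB108, a MYB transcription factor gene. Its cover was 8850 and 8400 bp in the fixed libraries, 7350 and 1050 bp in unfixed 1 and unfixed 2, and 84.6% in leaf. The interval of 9150 bp on chromosome 5 (21622351 to 21631500) lay 520 bp from UBC10, a ubiquitin-conjugating enzyme gene, and 3069 bp from CRF3, a cytokinin response factor gene. Its cover was 8100 and 7200 bp in the fixed libraries, 8550 and 1350 bp in unfixed 1 and unfixed 2, and 86.9% in leaf.

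A further 2 of the 8 widest lay beside genes with no symbol in the annotation, and each held a pseudogene. The interval on chromosome 3 (9322651 to 9333300) began 2990 bp from ABCG21, an ABC transporter gene, and ended 361 bp from AT3G25640. It was covered over 9900 and 8850 bp in the fixed libraries, 6900 and 1650 bp in unfixed 1 and unfixed 2, and 95.8% in leaf. The interval of 8400 bp on chromosome 1 (19443901 to 19452300), 269 bp from AT1G52200, was the most even one. Its cover was 7350 and 8400 bp in the fixed libraries, 7800 and 6300 bp in unfixed 1 and unfixed 2, and 91.1% in leaf.

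Of the 147 intervals in all 4 endosperm lists, 20 had no leaf domain at all. The widest of these, 8700 bp (chromosome 1, 4530451 to 4539150), lay 228 bp from GATL3, a galacturonosyltransferase-like gene, and 3017 bp from RAV1, an AP2/B3 transcription factor gene, and held the long non-coding RNA gene AT1G05003. It was covered over 7800 and 8100 bp in the fixed libraries and over 6750 and 3450 bp in unfixed 1 and unfixed 2. All 4 endosperm libraries thus marked a region without a call in the leaf list.

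The next widest of this kind were narrower. An interval of 7350 bp (chromosome 1, 23902801 to 23910150) lay 519 bp from AT1G64385 and 873 bp from GH9C2, a glycosyl hydrolase gene, with 7050 and 5250 bp covered in the fixed libraries and 6000 and 3750 bp in unfixed 1 and unfixed 2. An interval of 5250 bp (chromosome 5, 21422401 to 21427650) lay 176 bp from MAKR5, a membrane-associated kinase regulator gene, with 4350 and 4200 bp covered in the fixed libraries and 5250 and 600 bp in unfixed 1 and unfixed 2. In both, unfixed 2 was the lowest library, further below the others at MAKR5. An interval of 4200 bp beside AT2G40230 (chromosome 2, 16805251 to 16809450) was covered over 3900 and 4050 bp in the fixed libraries and 4200 and 1800 bp in unfixed 1 and unfixed 2. The last, 4050 bp beside HL (chromosome 5, 22081351 to 22085400), lay 1009 bp from THE1, a receptor kinase gene that senses the cell wall, and was covered over 3300 and 2550 bp in the fixed libraries and 3000 and 600 bp in unfixed 1 and unfixed 2.

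At the other end, 38 of the 147 were wholly covered in leaf. The 5 widest were 8400 bp beside AT1G61667, 7350 bp beside CKL6 (a casein kinase gene), 7200 bp beside AT5G42635, 6900 bp between ASP3 and EMF1, and 6450 bp beside LPLAT2. ASP3 encodes an aspartate aminotransferase, and EMF1 encodes a protein that works with Polycomb complexes; their interval (chromosome 5, 3688051 to 3694950) lay 196 bp from ASP3 and 841 bp from EMF1. It was covered over 6150 and 6900 bp in the fixed libraries and over 5400 and 1800 bp in unfixed 1 and unfixed 2. Across the 5 intervals, cover ran from 4350 to 6900 bp in the fixed libraries, from 5400 to 7350 bp in unfixed 1 and from 750 to 3000 bp in unfixed 2.

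**Figure D2:**
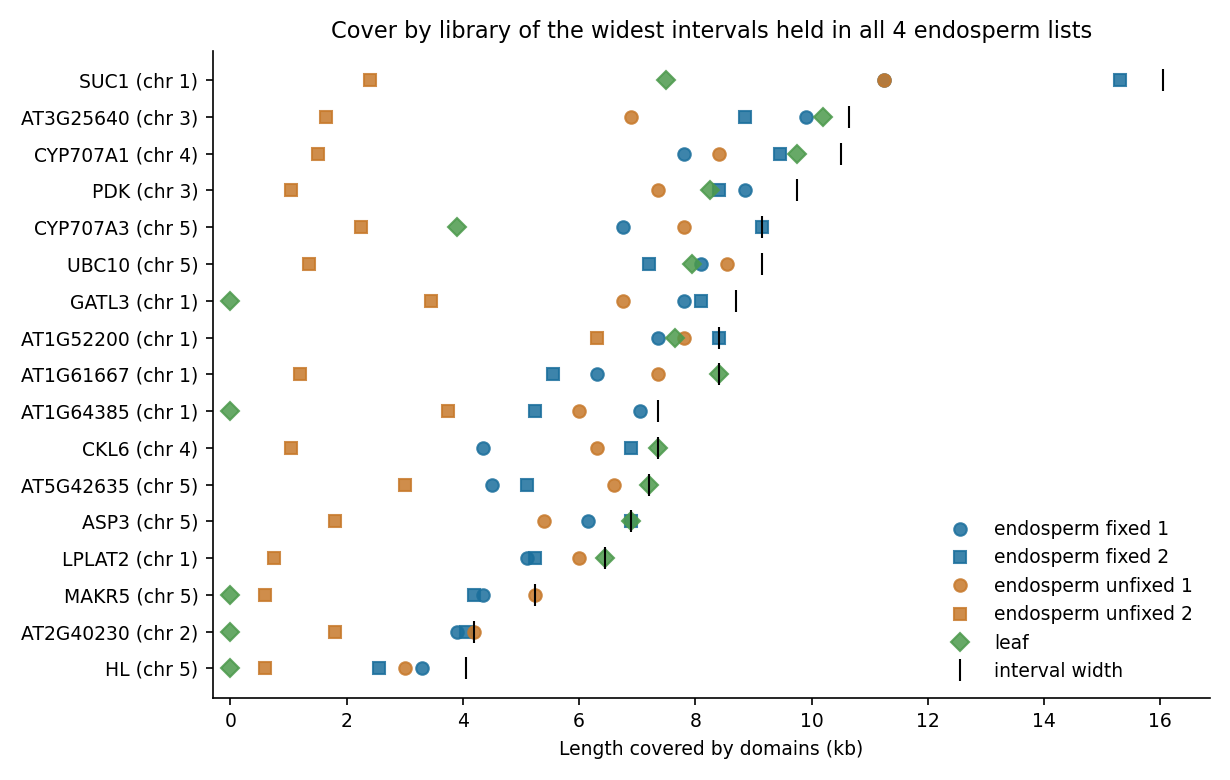
Length in kb covered by domains in each endosperm library and in leaf, for the widest intergenic arm intervals held in all 4 endosperm lists, each named by its nearest protein-coding gene; blue is fixed and orange unfixed endosperm, green diamonds are leaf and black bars the interval's full width. Unfixed 2 is the lowest endosperm library in every interval drawn, and leaf lies at 0 for GATL3, AT1G64385, MAKR5, AT2G40230 and HL.

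Of 141 distinct arm genes in 11 lists of regulators and tissue genes, 6 were the nearest gene of an intergenic arm interval within 2000 bp, against 855 (3.56%) of all 24016 arm genes. Counting the gene on either side of an interval within 2000 bp, 11 of the 141 had one, against 1254 (5.22%) of all arm genes; the 5 genes this adds are the meristem genes WOX2 and CLV3, the imprinted auxin synthesis gene YUC10, the auxin carrier gene PIN4 and the actin gene ACT8. In the same lists 104 of the 141 were touched by an endosperm interval, against 39.6% of all arm genes. No floral regulator (of 21), type I MADS-box gene (of 12), endosperm regulator (of 11) or seed coat gene (of 8) had an intergenic arm interval on either side within 2000 bp. With 5.22% of all arm genes having one, lists of this size can hold none, so the absence sets none of these classes apart. The 6 of 141 likewise lay near the 3.56% of all arm genes.

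Of the 6 nearest genes, 3 were among the 15 of the auxin pathway. MP encodes an auxin response factor that patterns the embryo; its interval (chromosome 1, 6883201 to 6886200) lay 468 bp away. It was covered over 1200 and 1350 bp in the fixed libraries, 2850 and 0 bp in unfixed 1 and unfixed 2, and 100% in leaf. AUX1 encodes an auxin influx carrier; its interval (chromosome 2, 15970201 to 15972300), 575 bp away, was covered over 1350 and 1350 bp in the fixed libraries, 1800 and 450 bp in unfixed 1 and unfixed 2, and 35.7% in leaf. PIN7 encodes an auxin efflux carrier; its interval (chromosome 1, 8177701 to 8178900), 1288 bp away, was called over its full 1200 bp in both fixed libraries and in neither unfixed library nor leaf.

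The seed maturation list gave LEC1 alone, of 15 genes. LEC1 encodes a nuclear factor Y subunit that drives embryo and endosperm maturation. Its interval (chromosome 1, 7730401 to 7732650) lay 751 bp from the gene and was covered over 1650 and 1800 bp in the fixed libraries, 1350 and 0 bp in unfixed 1 and unfixed 2, and 100% in leaf. The root list gave RHD6, a root hair regulator, of 9 genes, with an interval of 900 bp (chromosome 1, 24793351 to 24794250) covered over 600 and 450 bp in the fixed libraries, 900 and 0 bp in unfixed 1 and unfixed 2, and 100% in leaf. The signalling list gave ERL1, a receptor kinase gene, of 12, with 900 bp called in unfixed 1 alone.

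Of the intergenic arm intervals, 333 (31.2%) met an annotated gene that is not protein-coding, 410 such genes in all, and 734 met no annotated gene of any kind. Of the 3918 annotated arm genes that lie outside protein-coding genes, 397 (10.1%) were met. By type, miRNA genes were met most often, 31 of 184 (16.8%, 95% Wilson interval 12.1% to 22.9%), and 30 of the 31 lay wholly inside an interval. Pseudogenes followed with 79 of 536 (14.7%) and transcribed pseudogenes with 63 of 438 (14.4%), but 3.54% of the first type and 6.39% of the second lay wholly inside. Long non-coding RNA genes were met near the overall share, 176 of 1566 (11.2%). Lower shares were found for snoRNA genes (6 of 181, 3.31%) and tRNA genes (10 of 514, 1.95%), which are needed in every cell. None of 38 snRNA genes was met (95% Wilson interval 0% to 9.18%), nor either of 2 rRNA genes. Over all merged endosperm intervals miRNA genes were also met most often, 58.2%, against 16.9% of tRNA and 8.84% of snoRNA genes. Leaf domains met 48.4%, 6.23% and 7.18% of these types, so this contrast is not particular to the intergenic arm intervals. Pseudogenes ranked differently there: endosperm intervals met 37.5% of them, against 50.2% of long non-coding RNA genes. Gene length differs between the types, from a median of 73 bp for tRNA and 135 bp for miRNA genes to 1988 bp for pseudogenes, and a longer gene is met more easily but is less easily contained.

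**Figure D3:**
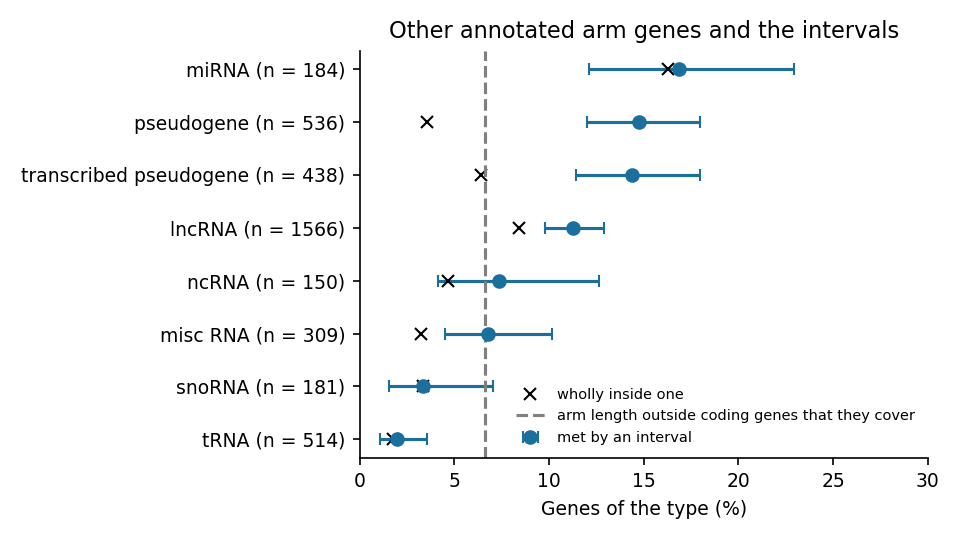
Share of annotated arm genes of each type, outside protein-coding genes, that an intergenic arm interval meets (circles, 95% Wilson intervals) or wholly contains (crosses); the dashed line is the share of arm length outside coding genes that the intervals cover, 6.62%. miRNA genes lie to the right of the line on both measures and tRNA genes to the left.

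MicroRNA genes encode short RNAs that direct the cleavage of target mRNAs, many of them from transcription factor genes. The 31 miRNA genes lay in 29 intervals of 450 to 7650 bp; naming them was chosen after their values were seen. Of the 29 intervals, 6, 5, 7 and 11 were held in 1, 2, 3 and 4 lists. Leaf domains covered at least 50% of 18 of them (62.1%, against 42.5% of all intergenic arm intervals and 46.9% of all merged intervals) and none of 9. Of the 11 in all 4 lists, 9 were at least 50% covered in leaf, close to the 72.1% of all intergenic arm intervals in all 4 lists. MIR399d and MIR399e shared 1 interval, as did MIR771 and MIR851. Among the widest intervals with a non-coding RNA gene in at least 3 lists was also one of 8100 bp beside AT5G57123 (chromosome 5, 23130451 to 23138550), covered over 5400 and 5700 bp in the fixed libraries, 4950 and 2550 bp in unfixed 1 and unfixed 2, and 46.3% in leaf.

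Several miRNA families were represented among the intervals in all 4 lists. MIR166a, whose product restricts the HD-ZIP III factors of leaf polarity, lay in the widest (chromosome 2, 19172551 to 19180200). It was covered over 6150 and 7050 bp in the fixed libraries, 5700 and 2550 bp in unfixed 1 and unfixed 2, and 86.3% in leaf. MIR165b, of the same family, lay in an interval (chromosome 4, 368401 to 370800) covered over 2400 and 1200 bp in the fixed libraries and 2100 and 1050 bp in unfixed 1 and unfixed 2, and wholly in leaf.

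Both MIR394 genes, whose product acts in the shoot meristem, were held in all 4 lists. The MIR394a interval (chromosome 1, 7054201 to 7060500) was covered over 3150 and 5550 bp in the fixed libraries, 5250 and 450 bp in unfixed 1 and unfixed 2, and 95.2% in leaf. The MIR394b interval (chromosome 1, 28567051 to 28570050) was covered over 2700 and 2550 bp in the fixed libraries, 1950 and 1050 bp in unfixed 1 and unfixed 2, and 100% in leaf. The joint interval of MIR399d and MIR399e and the MIR2111a interval, both families of phosphate starvation, were 1650 and 2100 bp wide and also wholly covered in leaf.

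MIR172b, whose product targets AP2-type factors of flowering, was held in all 4 endosperm lists and had no leaf domain. Its interval (chromosome 5, 1186801 to 1189050) was covered over 2100 and 2250 bp in the fixed libraries and 1350 and 600 bp in unfixed 1 and unfixed 2. MIR5018 (chromosome 1, 24543601 to 24544800) had the same pattern, with 1050 and 1050 bp in the fixed libraries, 1200 and 900 bp in unfixed 1 and unfixed 2, and 0 in leaf. MIR167a, whose product targets auxin response factors, lay in an interval of 3900 bp in 3 lists and also without a leaf domain.

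Leaf domains covered at least 50% of 453 intergenic arm intervals (42.5%, 95% Wilson interval 39.5% to 45.4%), against 47.4% of arm intervals that touch a gene and 32.7% of pericentromeric intervals outside genes. Over all 8599 merged intervals the share was 46.9%. No leaf domain met 525 intergenic arm intervals (49.2%), 216 were covered wholly, and 89 were covered in part but under 50%. With 1 leaf library these shares have no replicate check, and the Wilson intervals cover counting error only, as do all confidence intervals on counts here.

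Leaf cover went up with the number of endosperm lists. In the intergenic arm intervals it was 29.6% for 1 list, 38.2% for 2, 56.7% for 3 and 72.1% for all 4; in those that touch a gene it was 16.8%, 37.8%, 54.2% and 75.8%. The classes therefore lay near each other at 2, 3 and 4 lists and apart at 1 list. Without unfixed 2, 63.7% of the 322 intergenic arm intervals held in every other list and 73.9% of the 2917 gene-touching ones were at least 50% covered in leaf. Leaf cover also went with width, from 31.6% of intergenic arm intervals up to 900 bp to 63.0% of those over 4000 bp, against 17.4% and 72.6% of gene-touching ones. Leaf cover was 45.7%, 34.5%, 37.0%, 52.3% and 41.1% on chromosomes 1 to 5.

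Taken library by library, leaf cover of the intergenic arm intervals stayed in a narrow band. Of the intervals that fixed 1, fixed 2, unfixed 1 and unfixed 2 met, 52.2%, 52.9%, 48.3% and 51.0% were at least 50% covered in leaf, against 65.1%, 69.3%, 56.3% and 54.2% of gene-touching ones. The share was lower outside genes in all 4 libraries, with a difference of -10.1 ± 5.76 percentage points (SD, n = 4, two-sided exact paired permutation p = 0.125, the smallest possible). All 4 libraries were set against the same leaf list here and in the next comparison, and those here met many of the same intervals. The SD and p therefore give no replicate check of leaf cover. Of intervals found in 1 list alone, 35.1%, 33.0%, 28.7% and 15.1% were so covered outside genes, against 29.3%, 41.5%, 12.8% and 11.1% of gene-touching ones in the same libraries. That difference of 4.28 ± 10.0 points (SD, n = 4) was smaller than its spread (exact permutation p = 0.5), and fixed 2 went the other way.

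**Figure D4:**
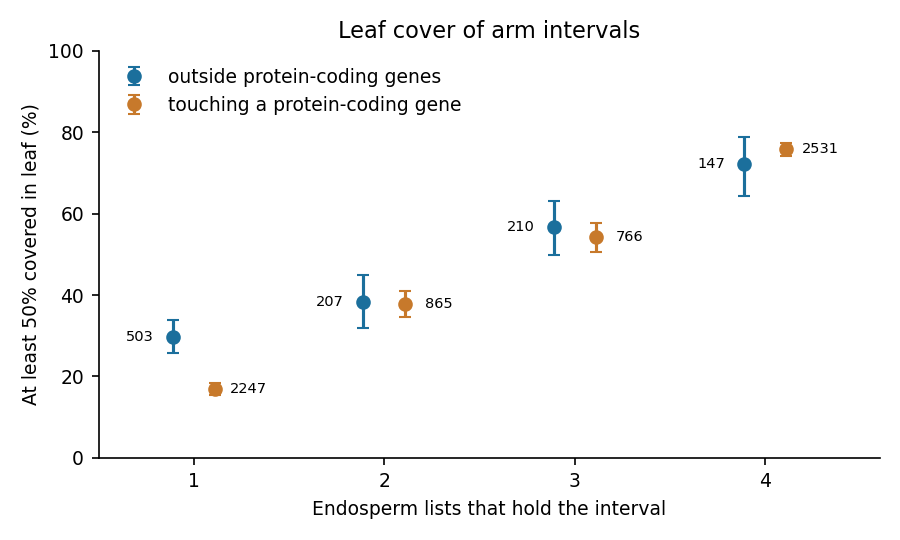
Share of arm intervals at least 50% covered by leaf domains (95% Wilson intervals; numbers are the intervals in each class), by the number of endosperm lists that hold the interval. Blue intervals lie outside protein-coding genes and orange ones touch a gene; both go up with the number of lists, to 72.1% and 75.8% at all 4.

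Parental reads were counted in the 150 bp bins of each interval from the pooled table, so every value that follows is a single one for the endosperm libraries together, with no replicate. Of the 1067 intervals, 666 had enough reads for a ratio (at least 40 per antibody and 10 Ler reads in H3), 285 had too few and 116 had none. The 666 held a median of 325.5 H3K27me3 and 142 H3 reads, but only 33 Ler H3K27me3 reads, so the Ler count sets the precision of most ratios. For comparison, 5233 windows of 1500 bp in arm sequence outside coding genes and outside all domains were counted in the same way, of which 2816 had enough reads.

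Over all intergenic arm intervals the Col reads numbered 285732 for H3K27me3 and 104749 for H3, and the Ler reads 30780 and 24080. The Col share was 90.3% of H3K27me3 and 81.3% of H3 reads, against 92.6% and 81.1% in arm intervals that touch a gene and 89.3% and 81.9% in the unmarked windows. There were 2.73 H3K27me3 reads per H3 read on Col and 1.28 on Ler, against 3.30 and 1.13 in gene-touching intervals and 1.56 and 0.843 in the windows. Relative to the windows, H3K27me3 per H3 was 1.75-fold higher on Col and 1.52-fold higher on Ler in the intergenic arm intervals, against 2.12-fold and 1.34-fold in the gene-touching ones. Summed over all intervals, Ler was thus higher in the intergenic arm intervals than in gene-touching ones, and was so on all 5 chromosomes (1.24 to 1.35 against 1.11 to 1.15 reads per H3 read). The lower Col value of the sum did not hold at each number of lists. The intervals were chosen from domain lists that do not split the alleles, and most allele-assigned reads are Col reads. The windows were chosen outside all domains, so the higher H3K27me3 per H3 of the intervals is partly built into the rule.

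The level went up with the number of lists on both alleles. Each list is itself a set of H3K27me3 calls in endosperm, so this trend is partly built in. Col H3K27me3 per H3 was 2.30, 2.42, 2.80 and 3.38 in intergenic arm intervals of 1, 2, 3 and 4 lists, and Ler was 1.15, 1.20, 1.35 and 1.41. In gene-touching intervals Col was 1.92, 2.23, 2.47 and 3.70, and Ler was 0.915, 1.03, 1.10 and 1.17. At 1, 2 and 3 lists both alleles were therefore higher in the intergenic arm intervals, and at 4 lists Ler was higher and Col lower. The mix of libraries differed: of intervals in 1 list, unfixed 2 gave 73 of 503 intergenic and 978 of 2247 gene-touching ones. The part of this mix in the difference was not tested. By width, Col was likewise higher in intergenic arm intervals than in gene-touching ones in each class up to 4000 bp (2.48 against 2.00 up to 900 bp) and lower above it (3.33 against 3.80).

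The parental ratio sets the Col to Ler ratio of H3K27me3 reads over that of H3 reads, as a log2 value, and is given relative to the median of the unmarked windows, which was 1.00 on that scale. The intergenic arm intervals had a median ratio of 0.13 (middle 50% -0.38 to 0.64), against 0.36 in gene-touching and 0.27 in pericentromeric intervals outside genes. By number of lists the median was 0.08, 0.10, 0.20 and 0.19 in the intergenic arm intervals and 0.18, 0.22, 0.20 and 0.49 in the gene-touching ones. The classes were alike in 3 lists and furthest apart in all 4.

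A call needed a ratio at least 2-fold away from the windows and a widened 95% interval that did not reach 0. Toward Col, 38 of the 666 intervals were called (5.71%), against 12.7% of gene-touching intervals; the background over all merged intervals was 12.0%, and 3.16% of the unmarked windows passed the same rule. Toward Ler, 12 were called (1.80%), against a background of 1.92% and 5.36% of the windows, so calls toward Ler were no more frequent than in unmarked sequence. The median error of the ratio was larger in the intergenic arm intervals, 0.62 against 0.51, and the part of this in the lower share of calls was not tested. With fixed 2 left out of the merge, 65 intervals were called toward Col; with other libraries left out, 38 to 51. Calls rest on the centring: without it, 302 were toward Col and 0 toward Ler. Centred on the ratio of all nuclear reads, 27 were toward Col and 25 toward Ler. Of the 38, 32 were in at least 2 lists, 18 in all 4, and 22 were at least 50% covered in leaf; of the 12 toward Ler these counts were 7, 2 and 3.

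**Figure D5:**
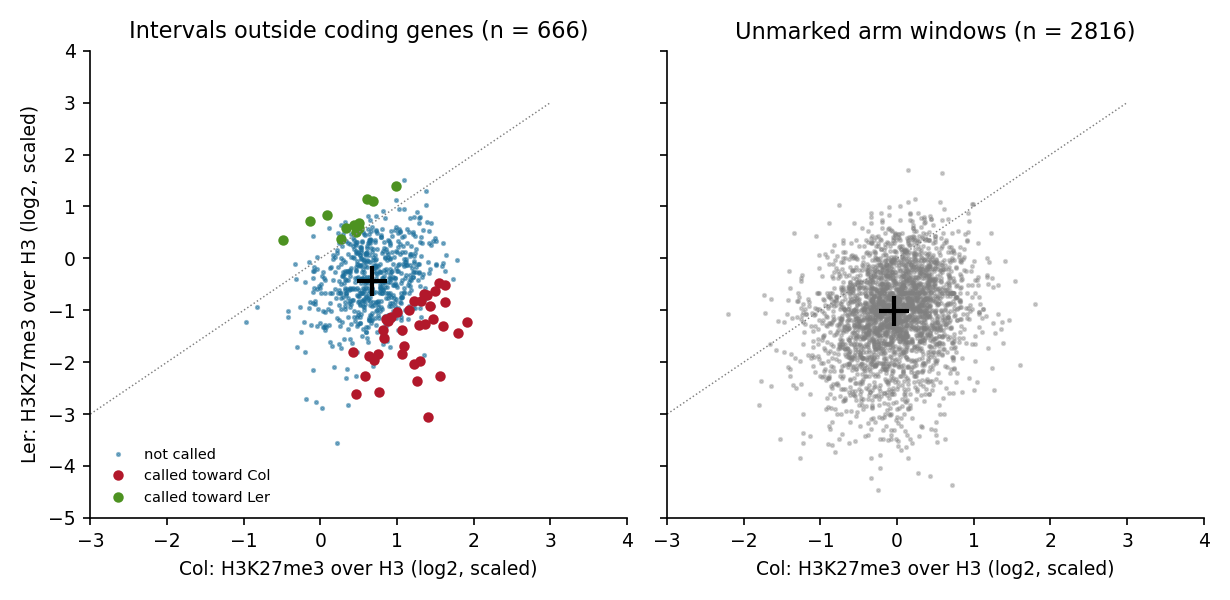
H3K27me3 over H3 on the Col allele (horizontal) and the Ler allele (vertical), log2 and scaled by the nuclear read totals of both alleles, for the 666 intergenic arm intervals with enough reads (left) and the 2816 unmarked windows (right); crosses are medians, the dotted line is equal level, and 2 intervals and 19 windows lie outside the axes. The medians are 0.67 on Col and -0.43 on Ler in the intervals, against -0.04 and -1.02 in the windows. The windows were chosen outside all domains, so their lower levels are partly built in.

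The highest ratios among intervals called and held in at least 2 lists came with few Ler reads. The interval 352 bp from NAPRT2, a nicotinate phosphoribosyltransferase gene (chromosome 2, 9969751 to 9971250), had 200 Col and 0 Ler reads in H3K27me3, against 52 Col and 26 Ler reads in H3. With 3 counts in place of 0, its ratio was 4.08. It was held in fixed 1 and unfixed 1 only, over 900 and 1500 bp, and was 70% covered in leaf.

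The interval 1690 bp from AT5G24210 (chromosome 5, 8209501 to 8215500) was the widest of this group, 6000 bp, and was held in all 4 lists and wholly in leaf. It had 445 Col and 5 Ler reads in H3K27me3, against 105 and 28 in H3, and a ratio of 3.46 ± 1.03 (widened SE). The interval 235 bp from AT5G12850 (chromosome 5, 4054501 to 4055850) and 831 bp from NF-YA1, a nuclear factor Y subunit gene, had 110 Col and 6 Ler reads in H3K27me3, against 23 and 19 in H3, and a ratio of 2.82 ± 1.09. Few Ler reads lie behind both values.

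The other 2 of this group had no leaf domain. TCP4, a leaf growth factor gene and target of miR319, lay 380 bp from an interval (chromosome 3, 5060101 to 5061300) with 245 Col and 5 Ler reads in H3K27me3, against 90 and 20 in H3, and a ratio of 2.34 ± 1.07. CYP78A6, a cytochrome P450 gene that promotes seed growth, lay 1371 bp from an interval (chromosome 2, 19156951 to 19158000) with 218 Col and 14 Ler reads in H3K27me3, against 39 and 24 in H3, and a ratio of 2.23 ± 0.81. The CYP78A6 interval was held in all 4 lists, over 1050 and 1050 bp in the fixed libraries and 750 and 150 bp in unfixed 1 and unfixed 2.

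Among miRNA genes, 22 intervals had enough reads, with ratios from -0.90 to 2.21 and a median of 0.35, and 2 of the 22 were called, both toward Col, against 5.71% of all intergenic arm intervals and 12.0% of all merged intervals. The MIR160a interval (chromosome 2, 16337551 to 16341750), whose product targets auxin response factors, had 872 Col and 46 Ler reads in H3K27me3, against 176 and 52 in H3, and a ratio of 1.48 ± 0.47. The MIR319c interval (chromosome 2, 17027251 to 17032050), of the family that targets TCP4, had 424 Col and 21 Ler reads in H3K27me3, against 70 and 31 in H3, and a ratio of 2.14 ± 0.66. Both were held in all 4 endosperm lists over at least 2850 bp and were over 90% covered in leaf (96.4% and 90.6%). Of the wide intervals without a leaf domain, those beside MAKR5 (1.04 ± 0.31) and AT2G40230 (1.58 ± 0.63) were also called toward Col, and that beside GATL3 was not (0.58 ± 0.30).

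The intervals with the lowest ratios among those called and held in at least 2 lists lay beside BAP1, DER1, TPPI, SQE3 and BRG1. BAP1 encodes a protein that limits cell death; its interval (chromosome 3, 22651801 to 22655850), 164 bp away, had 573 Col and 68 Ler reads in H3K27me3, against 235 and 19 in H3, and a ratio of -1.52 ± 0.58. The interval 752 bp from DER1, a derlin gene of the endoplasmic reticulum (chromosome 4, 14440801 to 14443800), had 277 Col and 66 Ler reads in H3K27me3, against 108 and 19 in H3, and a ratio of -1.41 ± 0.61. In both, the H3 reads on Ler were few, 19 in each interval.

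The interval beside TPPI, a trehalose phosphate phosphatase gene (chromosome 5, 3162001 to 3165750), had a ratio of -1.41 ± 0.53 and was wholly covered in leaf. The interval beside SQE3, a squalene epoxidase gene of sterol synthesis (chromosome 4, 17747251 to 17750400), had 608 Col and 106 Ler reads in H3K27me3, against 281 and 42 in H3, and a ratio of -1.21 ± 0.42. The interval beside BRG1 (chromosome 5, 18222751 to 18225900) lay 2867 bp from NPR3, a salicylic acid receptor gene, and had a ratio of -1.18 ± 0.56. Leaf cover of the 5 intervals ran from 0% at DER1 and 4.76% at SQE3 to 70.4% at BAP1, 76.2% at BRG1 and 100% at TPPI.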

How the data were processed

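H3K27me3 domains of 4 endosperm libraries and 1 leaf library, of 17 samples in the series, and 1 table of parental counts for the endosperm libraries were used; IgG, seed coat and embryo samples were left out. The build was TAIR10 and the tools were SICER, deepTools 2.0, Picard, Bowtie2 and Trim Galore, per the submitters' processing notes, which give no roles here. Each domain carries a p-value or q-value that the authors computed (it is not stated which; all are at or under 0.0490) and an enrichment the authors deposited, read as log2 because the base is not stated. The authors deposited whole-number counts of reads per 150 bp bin and parent; which libraries these columns pool, and how reads were assigned, are not stated in the labels or headers, so no model over libraries could be fitted and depth per library is unknown.

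Positions are those of the files, counted from 1. Genes are from the TAIR10.1 annotation, taken to share TAIR10 coordinates: 35 of 41 floral and meristem regulators were leaf-marked in place, against 10 and 8 when moved by 50000 bp either way. Overlapping or touching domains were joined. The ratio used 0.5 added to each count, bins whose midpoint lies in the interval, and an SE from counting error widened 1.50 times, as much as the 750 bp parts of 1238 unmarked windows differed beyond counting error; it covers no variation between replicates. On simulated counts for 6097 merged intervals, 75.0% (toward Col) and 87.1% (toward Ler) of changes of 1.5 on the log2 scale were recovered. For changes of 2 the shares were 89.4% and 95.7%, and for changes of 3 they were 94.8% and 100%. None was called in the wrong direction, and of unchanged intervals 1.89% to 2.25% were called. The simulated counts were drawn with the same widened spread that the call uses, so that share does not measure false calls in the real data. Recovery was not measured for the intergenic arm intervals alone, whose median error is larger (0.62 against 0.53 over all merged intervals). Of the real unmarked windows, 3.16% were called toward Col and 5.36% toward Ler.

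Intervals were named by rule: the 8 widest in all 4 lists; the 5 widest in all 4 lists with leaf cover of 0% and of 100%; the 5 highest and 5 lowest called ratios in at least 2 lists; those in at least 2 lists nearest, within 2000 bp, to a gene of the gene lists (160 of 168 entries matched); the 5 widest in at least 3 lists with a non-coding RNA gene; and those at the edge of the rule. ERL1, the listed genes with an interval on either side, and the miRNA genes were added after their values were seen. The intervals and lists were chosen with earlier results of these data known. Python 3.11.15, numpy 2.4.6, pandas 2.3.3, scipy 1.17.1 and matplotlib 3.10.9 were used.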

Additional observations from a re-analysis of the deposited data

Results flagged for a closer look

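Unfixed 2 lay far from the other 3 endosperm libraries on the covered length of the intergenic arm intervals and on the share of its domains there. Its domains covered 338.85 kb of them, and its gap to the nearest library was 0.861 of the range of all 4. The intervals held 3.99% of its domains, with a gap of 0.889 of the range. Both gaps exceed Dixon's 95% critical value for 4 samples, which chance passes in about 1 of 20 groups for a measure fixed in advance. The number of intervals met, the median domain width and the median enrichment were screened in the same way and did not exceed it. The gaps given were thus picked from several measures. The median domain width of unfixed 2 in the intervals was 900 bp, while the other endosperm libraries had 1350 to 1650 bp. The part of domain width in the low cover was not tested.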

How the results depend on the processing

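Over the alternatives tried for the main results, 43 values were scored as kept, 18 as moved and 1 as reversed. Differences of fixed from unfixed libraries, and of intergenic from gene-touching intervals in domain width and enrichment, were scored by sign alone. A fixed minus unfixed difference of 925 kb, against 326.1 kb, thus scored as kept. Counts of intervals and of calls scored as kept within a set fold change. Asking for at least 2 lists left 564 intervals, with a median width of 2100 bp and 53.9% at least 50% covered in leaf (72.1% for all 4 lists). Asking for 500 bp to the nearest gene left 687 intervals. Leaf cover was 50.8% for any overlap, 29.5% for at least 80% of the interval, and 35.4% when only the leaf domains in the upper 75% of enrichment were used. The gap from the interval's midpoint was 1753 bp. Without centring on the windows, calls numbered 302 toward Col and 0 toward Ler, and centred on the ratio of all reads, 25 were called toward Ler, so the number of calls rests on the centring. Leaving out each endosperm list in turn gave 1022 to 1259 intervals, 44.1% to 48.4% leaf cover, 38 to 65 calls toward Col (65 without fixed 2) and 10 to 14 toward Ler. Without unfixed 2 (an alternative chosen after seeing the data), leaf cover of intervals in every list was 63.7% outside genes and 73.9% for gene-touching ones. Fixed minus unfixed covered length ran from -113 to 925 kb and reversed, to -113 kb, without unfixed 2. With the replicate number as a block it was 326.1 kb (exact permutation p = 1, smallest possible 0.5), with -87.9 kb for number 1 and 740.1 kb for number 2; the samples share only a number. Among the named intervals, MAKR5 was not called when centred on the ratio of all reads, and BRG1 was not when bins had to lie wholly inside. Ler depth limits the ratios: 401 intervals had too few reads or none.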
